A study of Mus musculus with 6 samples.

Results

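The non-fibrillar collagens are the collagen genes whose chains do not form the striated fibrils of types I, II, III, V, XI, XXIV and XXVII. They were taken as every mouse symbol of the form Col, number, a, number that a probe's accession was matched to, without the 11 fibrillar genes. That rule gave 33 genes with 51 probes, of 45616 genes with 56605 probes on the array, and no measured value entered it. RNA of fibroblasts cultured from the tails of C57BL/6 mice was hybridised to 6 Agilent arrays with 1 dye, in 3 groups of 2. Group no.1 is LH2 cKO cells in tamoxifen (+) medium, labelled as taken after 24 h of tamoxifen. Group no.2 is LH2 cKO cells in tamoxifen (-) medium, also labelled as taken after 24 h of tamoxifen. The control is cells in tamoxifen (-) medium with no such treatment named. All 6 samples, controls included, carry the genotype LH2F/F CAG-Cre, a floxed Plod2 allele with Cre driven by the ubiquitous CAG promoter and, with tamoxifen as the agent here, switched on by the drug. No group has tamoxifen with an intact gene, so tamoxifen, time in culture and deletion cannot be told apart in the contrasts against control. The cells grew out of minced tail skin on dishes coated with collagen I, and the labels do not say whether samples of a group came from separate mice or cultures. The p-values therefore rest on a spread between samples whose source, technical or not, is unknown. The deposited files' own names carry hours that the labels lack, 24 h for replicate 1 and 48 h for replicate 2 of both no.1 and no.2, and 0 h for both controls. If these hours are sampling times, the spread within no.1 and no.2 holds a difference in time. The effect of leaving out 1 of these arrays then cannot be told apart from time.

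Non-fibrillar collagens work around the fibrils rather than in them. Type IV chains form the sheet-like network of basement membranes, types VIII and X form other networks, and type VI forms beaded filaments close to the cell surface. FACIT collagens decorate fibrils, type VII makes the anchoring fibrils under the epidermis, transmembrane collagens sit in the plasma membrane, and multiplexins such as type XVIII lie at basement membranes and release anti-angiogenic fragments. Collagen chains are hydroxylated on lysine in the endoplasmic reticulum before they fold, and Plod2, which encodes lysyl hydroxylase 2 (LH2), acts mainly on the telopeptides of fibrillar collagens, where it sets the type of crosslink. In dermal fibroblasts types VI, XII, XIV and XVI are regular products, whereas types IX and X are best known from cartilage and type XVII from keratinocytes.

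Levels below are on a log2 scale, the processed signal over the 75th percentile of its array, and a change is the difference of group means on that scale, with its standard error (SE) and limma's p-value adjusted by the Benjamini-Hochberg method over all 23060 genes tested. A gene was called at an adjusted p under 0.05. The targeted gene Plod2 had log2 levels of -1.60 and -2.31 in no.1, -2.05 and -2.73 in no.2, and 0.30 and 0.052 in control. It was lower in no.1 than in control (log2 change -2.13, SE 0.34, adjusted p = 0.00613) and lower in no.2 than in control (log2 change -2.57, SE 0.34, adjusted p = 0.00768). With spike-in scaling the no.1 call of Plod2 was lost (-0.19, adjusted p = 0.593) and the no.2 value was -1.28 (adjusted p = 0.0131, limma). Whether its 1 probe lies in the deleted part is not known here, so the value does not by itself check the deletion. Of 11 fibroblast markers 9 were well above background on all 6 arrays, Fap was on 1 and Lum on none. Of the 9 tested, 5 were called lower relative to the 75th percentile in no.1 (Pdgfra, Pdgfrb, Thy1, S100a4 and Dcn) and 4 in no.2 (these without Pdgfrb), while Col1a1, Col1a2, Col3a1 and Vim were called in neither. The markers' summed signal, of which S100a4 gave the largest part on every array, as a multiple of the array's 75th percentile, was 1965 and 2032 in no.1, 2572 and 2172 in no.2, and 4932 and 5230 in control. In a bulk sample fewer cells of a type and less RNA per cell cannot be told apart. Of 47 markers of 8 other cell types 16 were above background on all 6 arrays and 23 on none. The 16 were Trp63, Csf1r, Cd68, Itgam, Actc1, Myh11, Cnn1, Mcam, Notch3, Sox9, Scx, Mbp, Foxd3, Lep, Pparg and Fabp4. Among the 23 were Krt5, Krt14, Cdh1, Epcam, Cdh5, Vwf, Ptprc, Adgre1, Myod1, Pax7, Rgs5, Sox10, Adipoq and Plin1. Of the 22 tested, 2 were called higher and 11 lower in no.1, and 2 higher and 6 lower in no.2. Of 3 tested leukocyte markers only Csf1r, a receptor of macrophages, was called, with changes of -2.40 and -2.07 (adjusted p = 0.00723 and 0.0192, limma). Cd68 changed by 0.059 and -0.38 and Itgam by -0.40 and -0.31, none of these called. The part of the markers of other cell types in the results below was not tested. The 75th percentile, set against 7 spike-in controls, was 3.91 and 3.76 times the control level in no.1, 1.99 and 2.98 times in no.2, and 1.00 and 0.998 times in control. A direction, of the markers above as of the genes below, is therefore relative to the bulk of the array's probes. For the fibroblast markers other than Dcn, values with spike-in scaling are not given here. With spike-in scaling the median of all genes tested moved to 1.82 in no.1 and 1.18 in no.2, against -0.12 and -0.10.

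Of the 33 genes, 21 were bright enough to test, which required both arrays of some group to read them well above background, and 15 of these were above background on all 6 arrays. Of the 12 left out, 11 were above background on no array, namely Col4a3, Col4a4, Col6a5, Col6a6, Col9a1, Col9a3, Col13a1, Col15a1, Col19a1, Col20a1 and Col28a1. Col23a1, a transmembrane collagen, was above background on 1 array. In no.1 against control 6 of the 21 were called (28.6%), where 47.8% of all genes tested were called. Col4a6, Col6a3, Col6a4 and Col10a1 rose, where 21.4% of all genes were called higher. Col16a1 and Col22a1 fell relative to the 75th percentile, where 26.4% of all genes were called lower, and both values were positive with spike-in scaling (1.02 and 0.61). In no.2 against control 5 of 21 were called (23.8%), where 28.3% of all genes were called. The same 4 genes rose, where 12.1% of all genes were called higher. Col26a1 fell relative to the 75th percentile, where 16.2% of all genes were called lower, and its value was 0.45 with spike-in scaling. Of the genes that rose, Col6a4 and Col10a1 were above background on neither control, so only the brighter arrays of no.1 and no.2 let them be tested. With normexp background correction they were at -0.033 and -0.37 in no.1, and at 0.17 and -0.16 in no.2. That setting adds an offset of 50, above every processed signal of both genes. A second Col6a3 probe gave -0.63 and -0.24, neither called. The members' share of calls was thus below the background in no.1 and near it in no.2, with no test of the margin. With spike-in scaling 18 of the 21 were called in no.1 and 17 in no.2, where 84.1% and 67.5% of all genes were. The contrasts share the control arrays, so that shared calls carry no separate weight. The median change of the tested members was -0.41 in no.1 and 0.24 in no.2, against -0.12 and -0.10 over all genes.

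**Figure D1:**
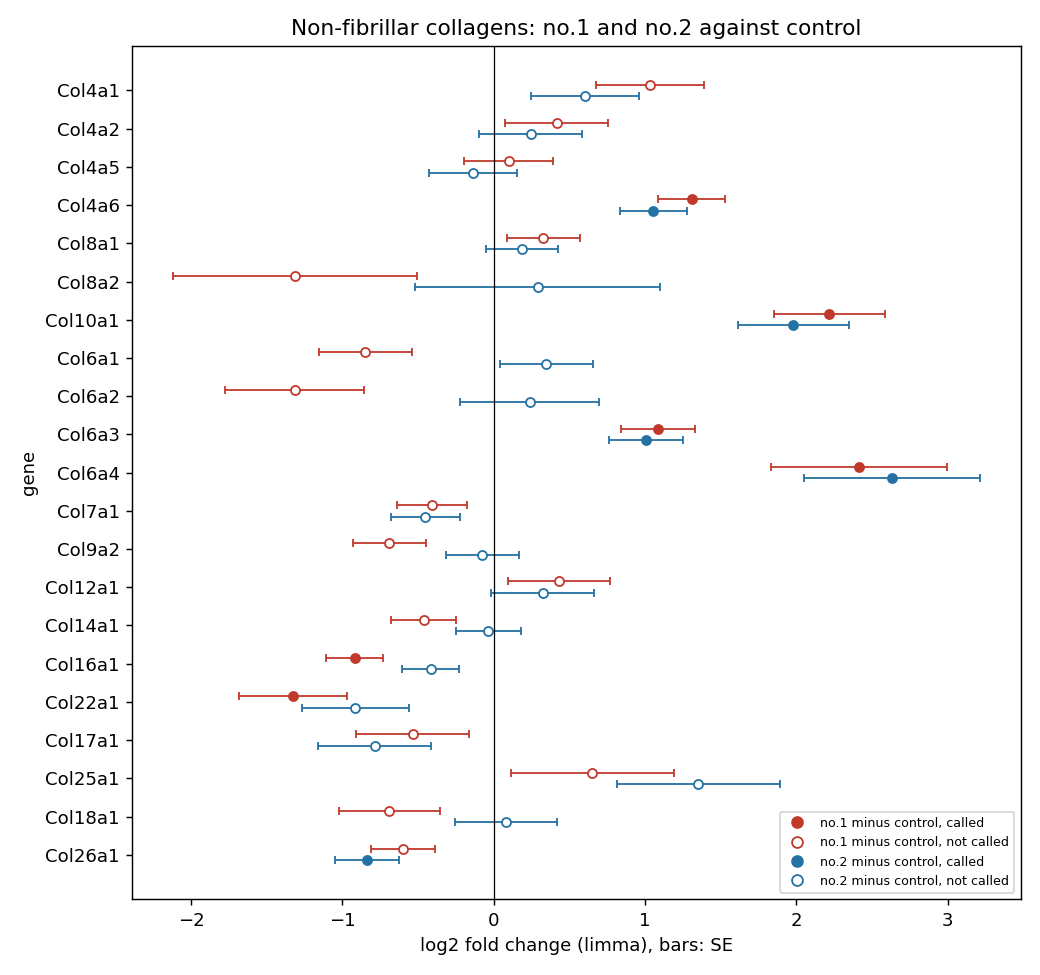
Log2 fold change against control (x axis, limma, bars are SE) of the 21 tested non-fibrillar collagen genes (y axis, grouped by type), with no.1 above no.2 and filled points for an adjusted p under 0.05. Col4a6, Col10a1, Col6a3 and Col6a4 lie to the right of 0 in both groups, while the filled points of Col16a1, Col22a1 and Col26a1 lie to its left (to its right with spike-in scaling).

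The controls lay closer together than the other pairs of arrays. The median absolute difference between the 2 arrays of a group over the tested members was 0.50 in no.1, 0.31 in no.2 and 0.094 in control, and over all genes tested it was 0.29, 0.34 and 0.12. The labels name the control arrays as separate samples, and their values were not identical. Leaving out either control leaves 1 array in that group. Calls over all genes then fell well below the 47.8% in no.1 and 28.3% in no.2 of the full fit. A call lost in that way below is therefore not particular to its gene. With the controls averaged into 1 sample, 3 members were called higher and 0 lower in no.1, and 0 were called in either direction in no.2, where 21% and 5.4% of all genes were called.

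**Figure D2:**
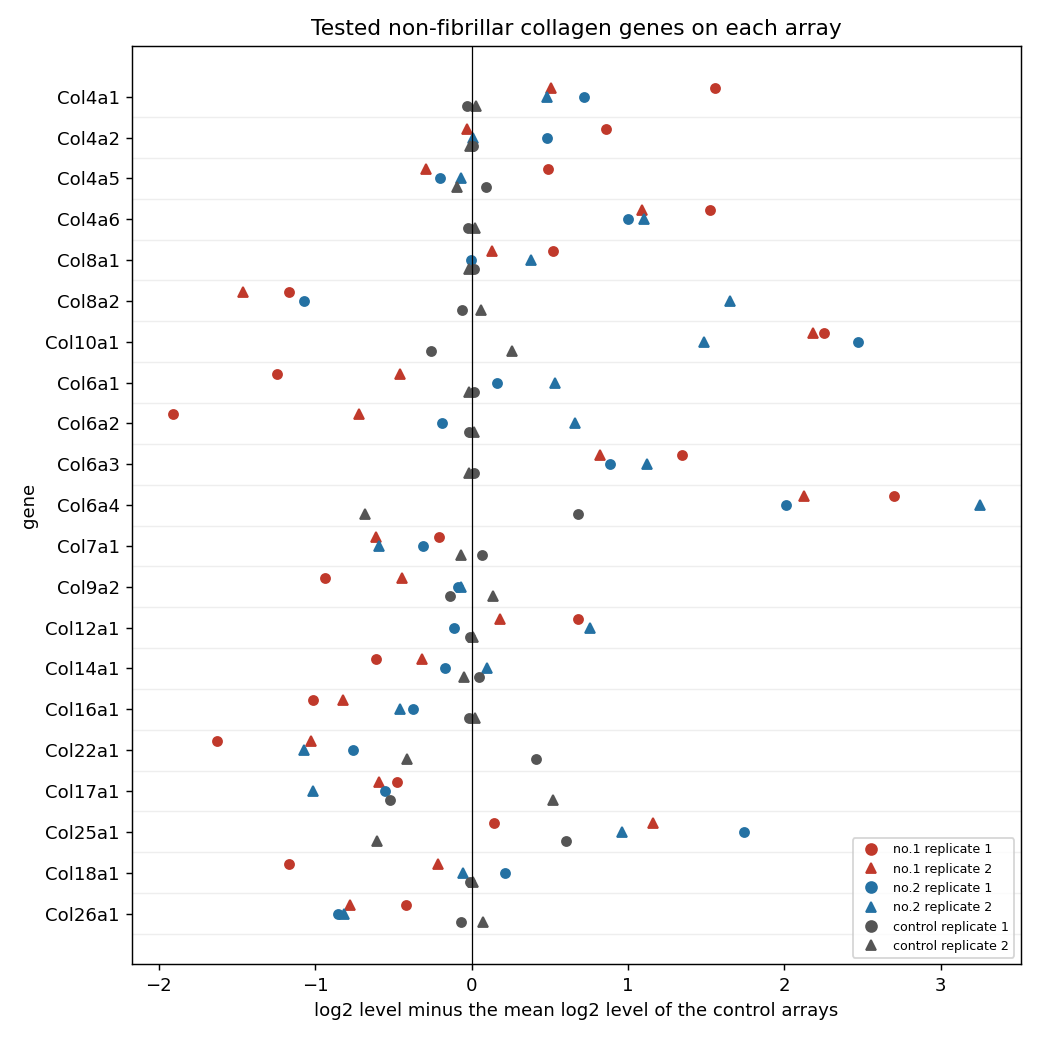
Log2 level on each array minus the mean log2 level of the control arrays (x axis), for each of the 21 tested genes (y axis), with circles for replicate 1 and triangles for replicate 2. For Col4a6, Col10a1, Col6a3 and Col6a4 all no.1 and no.2 arrays lie to the right of both control arrays, and for Col8a2 the no.2 arrays lie on either side of 0.

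Among type IV chains, the network of basement membranes, Col4a6 rose in both groups and the other 3 tested chains were not called. Col4a6 pairs with Col4a5 in the trimers of skin and smooth muscle basement membranes. Its log2 level was 0.60 and 0.17 in no.1, 0.080 and 0.18 in no.2, and -0.94 and -0.90 in control. All 4 arrays of no.1 and no.2 were above both controls, and no.1 and no.2 overlapped. The change was 1.31 in no.1 (SE 0.22, adjusted p = 0.00688), a fold of 2.48, and 1.05 in no.2 (SE 0.22, adjusted p = 0.0216), a fold of 2.08. The no.1 call was kept under all 16 alternatives, with adjusted p between 0.000282 and 0.0449. The no.2 call was lost without no.2 replicate 2 (1.00, adjusted p = 0.0711) and with either control left out (1.03, adjusted p = 0.111 without replicate 1, 1.07, adjusted p = 0.109 without replicate 2, limma).

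Col4a6 and Col4a5 lie head to head on chromosome X, with no protein-coding gene between them, as Col4a1 and Col4a2 do on chromosome 8. Col4a5 showed no such change. Its log2 level was 2.14 and 1.37 in no.1, 1.45 and 1.58 in no.2, and 1.74 and 1.56 in control, so that the groups overlapped (log2 change 0.10 in no.1, -0.14 in no.2, adjusted p = 0.793 and 0.741 by limma). A second tested Col4a5 probe gave 0.37 and 0.18, adjusted p = 0.2 and 0.542 over 29681 probes. The difference Col4a6 minus Col4a5 on the same array, which no scaling between arrays by one factor can alter, was above its control mean by 1.21 in no.1 and by 1.19 in no.2, with SDs of 0.24 in no.1, 0.023 in no.2 and 0.16 in control (n = 2 arrays each). With normexp background correction, which compresses dim probes, it was 0.18 in no.1 and 0.36 in no.2. The 250 bases before the start of each gene of this pair are shown because Col4a6 was called and Col4a5, from a neighbouring start, was not. They are credited to RefSeq, build GRCm38.p6, written 5′ to 3′ in the direction of transcription, with motif matches in capitals. Col4a6 is at chrX:141474077-141474326 on the minus strand and Col4a5 at chrX:141475169-141475418 on the plus strand.
Col4a6: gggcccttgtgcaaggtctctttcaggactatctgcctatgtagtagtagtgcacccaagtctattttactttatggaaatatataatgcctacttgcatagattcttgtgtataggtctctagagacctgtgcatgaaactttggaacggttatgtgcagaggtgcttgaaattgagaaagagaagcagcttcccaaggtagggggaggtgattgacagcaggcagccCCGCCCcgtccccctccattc
Col4a5: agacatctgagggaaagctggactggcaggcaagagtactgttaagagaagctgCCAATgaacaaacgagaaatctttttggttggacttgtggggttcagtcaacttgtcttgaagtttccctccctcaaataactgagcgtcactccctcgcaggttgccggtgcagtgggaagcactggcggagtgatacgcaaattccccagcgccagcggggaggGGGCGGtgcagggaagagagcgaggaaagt
Col4a6 holds a GC box that begins 21 bases before the start, read on the other strand. Col4a5 holds a CCAAT box 196 bases and a GC box 30 bases before it.

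Col4a1 and Col4a2, which form the common type IV trimer of most basement membranes, had high signals. Col4a1 had log2 levels of 5.11 and 4.06 in no.1, 4.28 and 4.03 in no.2, and 3.52 and 3.58 in control. All 4 treated arrays lay above both controls, yet no call was made (limma, log2 change 1.03, SE 0.36, adjusted p = 0.0558 in no.1, and for no.2 a change of 0.60 at adjusted p = 0.237). In no.1 Col4a1 was called under 7 of 16 alternatives, with values of 1.54 with normexp (adjusted p = 0.0126), 1.20 with quantile normalization (adjusted p = 0.0319), 1.46 with the median probe (adjusted p = 0.0157), 2.97 with spike-in scaling (adjusted p = 0.000555), 1.18 in the series' value table (adjusted p = 0.0328) and 1.03 with the replicate block (adjusted p = 0.0421, limma). In no.2 it was called with spike-in scaling (1.89, adjusted p = 0.00674). Replicate 1 decided the no.1 value. Col4a1 gave 0.51 without it (adjusted p = 0.152) and 1.56 without replicate 2 (adjusted p = 0.013, limma). Col4a2 had 5.15 and 4.25 in no.1, 4.76 and 4.29 in no.2, and 4.29 and 4.27 in control, where the groups overlapped. Col4a1 minus Col4a2 on the same array was above its control mean by 0.62 in no.1 and 0.36 in no.2 (SDs 0.11, 0.16 and 0.058 in no.1, no.2 and control). Col4a3 and Col4a4, whose chains with Col4a5 make the kidney and lung network, were above background on no array.

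**Figure D3:**
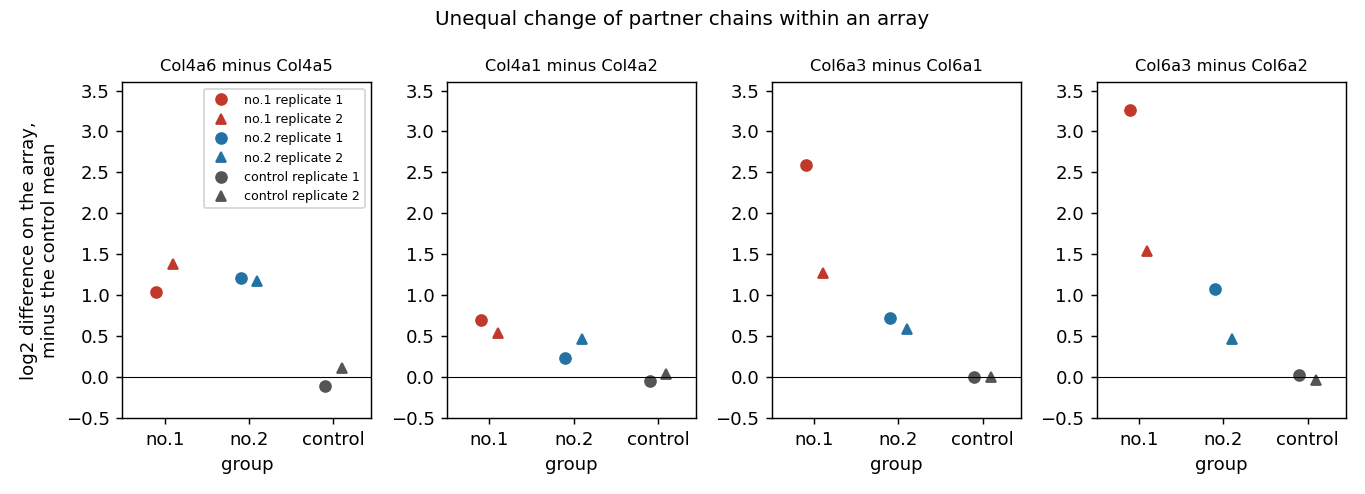
Log2 difference between partner chains on the same array, minus its control mean (y axis), for 4 pairs (panels) in no.1, no.2 and control (x axis), with circles for replicate 1 and triangles for replicate 2. Col4a6 minus Col4a5 averages 1.21 in no.1 and 1.19 in no.2, while Col6a3 minus Col6a1 averages 1.93 in no.1 and 0.66 in no.2, or 1.08 and 0.036 with the mean of all probes.

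Of the 4 tested type VI genes Col6a3 and Col6a4 were called higher in both groups, and Col6a1 and Col6a2 were called in neither. Col6a1, Col6a2 and Col6a3 encode the chains of the common type VI trimer, and the Col6a4, Col6a5 and Col6a6 chains can take the place of the Col6a3 chain. Col6a3 had log2 levels of 4.53 and 4.0 in no.1, 4.07 and 4.30 in no.2, and 3.20 and 3.17 in control. Every no.1 and no.2 array was above the controls. It rose by 1.08 in no.1 (SE 0.24, adjusted p = 0.0152) and by 1.00 in no.2 (SE 0.24, adjusted p = 0.031). A second tested Col6a3 probe gave values of the opposite sign, none called. That dimmer probe had processed signals of 90.3 and 67.7 in no.1, 72.5 and 55.6 in no.2, and 45.2 and 45.4 in control, and after scaling its changes were -0.63 (SE 0.23, adjusted p = 0.0657) and -0.24 (SE 0.23, adjusted p = 0.46, limma over probes). With the mean of both probes Col6a3 changed by 0.23 in no.1 (adjusted p = 0.401) and by 0.38 in no.2 (adjusted p = 0.212), and no call was made. The no.1 call was also lost without no.1 replicate 1 (0.82, adjusted p = 0.0591) and with either control left out (1.10, adjusted p = 0.073 without replicate 1, 1.07, adjusted p = 0.0806 without replicate 2). In no.2 it was lost without no.2 replicate 1 (1.12, adjusted p = 0.052), without no.2 replicate 2 (0.89, adjusted p = 0.104) and without either control (adjusted p = 0.13 and 0.144, limma).

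Col6a1 and Col6a2, neighbours on chromosome 10 on the same strand, were not called. Col6a1 had log2 levels of 4.56 and 5.35 in no.1, 5.96 and 6.34 in no.2, and 5.82 and 5.79 in control. Both no.1 arrays lay below and both no.2 arrays above the controls (limma, log2 change -0.85, SE 0.31, adjusted p = 0.0632 in no.1, and 0.35 in no.2 with adjusted p = 0.412). With spike-in scaling the no.1 value of Col6a1 was 1.09 (adjusted p = 0.0384, limma), and without no.1 replicate 2 it was -1.24 (adjusted p = 0.0248). Col6a2 had 0.88 and 2.07 in no.1, 2.61 and 3.45 in no.2, and 2.78 and 2.81 in control, with changes of -1.32 (SE 0.46, adjusted p = 0.0556) and 0.24 (SE 0.46, adjusted p = 0.711, limma). Its no.1 value was -1.91 without no.1 replicate 2 (adjusted p = 0.0267, limma), -0.72 without replicate 1 (adjusted p = 0.227), and 0.62 with spike-in scaling (adjusted p = 0.317). Within arrays Col6a3 minus Col6a1 was above its control mean by 1.93 in no.1 and by 0.66 in no.2 (SDs 0.93, 0.096 and 0.00070 in no.1, no.2 and control). Col6a3 minus Col6a2 was above it by 2.40 in no.1 and 0.77 in no.2. With the mean of all probes these became 1.08 and 0.036 for Col6a1 and 1.54 and 0.15 for Col6a2, so that in no.2 the difference rested on the brighter Col6a3 probe. Col6a2 minus Col6a1, a pair of 1 probe each, was -0.47 in no.1 and -0.11 in no.2. The promoters of Col6a3 (chr1:90843972-90844221, minus strand) and Col6a1 (chr10:76726045-76726294, minus strand) are shown as those of partner chains of which 1 was called, in the same form as above.
Col6a3: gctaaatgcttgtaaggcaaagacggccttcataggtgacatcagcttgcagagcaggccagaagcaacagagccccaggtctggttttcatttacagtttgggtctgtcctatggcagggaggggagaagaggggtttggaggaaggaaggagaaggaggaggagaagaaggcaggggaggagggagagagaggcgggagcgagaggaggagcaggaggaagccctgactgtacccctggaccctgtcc
Col6a1: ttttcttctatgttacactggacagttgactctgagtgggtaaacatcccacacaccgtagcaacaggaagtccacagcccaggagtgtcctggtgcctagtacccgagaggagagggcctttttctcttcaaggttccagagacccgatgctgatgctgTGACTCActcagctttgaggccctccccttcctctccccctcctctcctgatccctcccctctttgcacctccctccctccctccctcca
Col6a1 holds an AP-1 match that begins 90 bases before the start. Col6a3 holds none of the motifs searched.

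Col6a4 was read above background on all 4 treated arrays and on neither control, at low signals. Its log2 level was -1.03 and -1.61 in no.1, -1.73 and -0.49 in no.2, and -3.06 and -4.42 in control. With controls below that limit only a bound can be given. It was at least 2.98-fold higher in no.1 and at least 3.47-fold higher in no.2, bounds that have no test of their own. These bounds set the group's mean against the higher of the dim probe's own level and the lowest level among probes well above background on each control array. Only no.1 and no.2, where it was brighter, let Col6a4 be tested. The fitted changes, on control values below background, were 2.42 and 2.63 (SE 0.58 each, adjusted p = 0.0185 and 0.0243, limma). With normexp, whose offset of 50 exceeds every processed signal of the gene, they were -0.033 and 0.17, and neither was called. The no.1 call was lost without no.1 replicate 1 (2.13, adjusted p = 0.108), without no.1 replicate 2 (2.70, adjusted p = 0.0544) and also without control replicate 2 (1.73, adjusted p = 0.0703). The no.2 call was lost without no.2 replicate 2 (2.01, adjusted p = 0.107) and also without control replicate 2 (1.95, adjusted p = 0.089). A second Col6a4 probe was above background on no array, and with the mean of both probes the changes were 0.60 (adjusted p = 0.156) and 0.97 (adjusted p = 0.0629, limma). Col6a5 and Col6a6, which lie beside Col6a4 on chromosome 9 on the same strand, were above background on no array.

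Among the short-chain network collagens 1 of 3 tested genes was called. Col10a1, the type X chain of hypertrophic cartilage, had processed signals of 18.7 and 15.8 in no.1, 12.5 and 6.52 in no.2, and 1.17 and 1.65 in control. Its log2 levels were -2.36 and -2.43 in no.1, -2.14 and -3.12 in no.2, and -4.87 and -4.35 in control. Neither control array was well above background while all 4 other arrays were. Col10a1 was at least 1.42-fold higher in no.1 (fitted change 2.22, SE 0.37, adjusted p = 0.00652) and at least 1.20-fold higher in no.2 (fitted change 1.98, SE 0.37, adjusted p = 0.016). With normexp the values of Col10a1 were -0.37 for no.1 (adjusted p = 0.0134) and, for no.2, -0.16 at adjusted p = 0.187 (limma), the opposite sign. The offset of 50 in that setting exceeds all these processed signals, so its sign does not settle the direction either way. The no.1 call was kept in its direction under the other 15 alternatives. The no.2 call was lost without control replicate 1 (1.72, adjusted p = 0.0712). Of 4 tested chondrocyte and tendon markers Mkx was called higher and Sox9 and Tnmd lower in both groups, and Scx was called higher in no.2 (limma, 1.18 in no.1 at adjusted p = 0.0831 and 2.57 in no.2 at adjusted p = 0.0157, no call between no.1 and no.2). The summed signal of all 6 such markers, of which Scx gave the largest part on every array, over the 75th percentile, was 3.58 and 9.15 in no.1, 12.5 and 16.6 in no.2, and 4.04 and 4.70 in control. Of these 6 markers 2 were above background on all arrays, while Acan and Matn1 were on none, and their part in the result was not tested. The promoter of Col10a1 (chr10:34389731-34389980, plus strand, RefSeq, GRCm38.p6) is shown as that of a gene read above background only with tamoxifen treatment in the label.
Col10a1: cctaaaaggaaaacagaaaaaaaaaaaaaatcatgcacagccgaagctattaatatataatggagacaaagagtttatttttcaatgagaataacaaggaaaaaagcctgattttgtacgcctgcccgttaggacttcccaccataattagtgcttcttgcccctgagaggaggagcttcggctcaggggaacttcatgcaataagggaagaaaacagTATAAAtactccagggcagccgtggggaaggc
It holds a TATA box that begins 32 bases before the start.

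Col8a1 and Col8a2 encode the chains of type VIII, known from Descemet's membrane of the cornea and from vessel walls. Col8a1 was bright on every array, with log2 levels of 6.70 and 6.31 in no.1, 6.17 and 6.56 in no.2, and 6.19 and 6.16 in control, and it was not called (0.33 and 0.19, adjusted p = 0.291 and 0.571, limma). Col8a2 was near background. Its processed signal was 7.72 and 5.58 in no.1, 4.73 and 32.3 in no.2, and 5.93 and 6.34 in control, so that no.2 replicate 2 stood apart from the other arrays. Without that array the no.2 change of Col8a2 was -1.07, and without no.2 replicate 1 it was 1.65 (adjusted p = 0.0182), against 0.29 with both (SE 0.81). The no.1 change was -1.31 (SE 0.81, adjusted p = 0.219), and the same value was called when either no.2 array was left out (adjusted p = 0.00947, limma).

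Searched on both strands over the 250 bases before the start, 7 motifs were looked for in 30 promoters of 27 members and in 32841 promoters in all. Promoters of Col4a3, Col9a3, Col12a1, Col14a1, Col22a1 and Col26a1 were not in the table. The GC box GGGCGG was in 16 of 30 member promoters and 32.7% of all, the CCAAT box CCAAT in 10 and 33.9%, and the TATA box TATAAA in 3 and 12.4%. The AP-1 motif TGANTCA was in 1 and 6.75%, the TEAD motif GGAATG in 3 and 12.6%, and the RUNX motif ACCACA in 3 and 14%. The full palindrome of the estrogen response element was in 0 member promoters and 0.0639% of all. None of these words contains another, and a match is only a run of letters.

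FACIT collagens, which attach to the surface of fibrils, included both members that fell in no.1. Col16a1, a FACIT of dermal and other connective tissue, had log2 levels of 4.75 and 4.94 in no.1, 5.38 and 5.30 in no.2, and 5.74 and 5.78 in control. The 3 groups did not overlap. Col16a1 fell by 0.92 in no.1 (SE 0.19, adjusted p = 0.0117), relative to the 75th percentile, and its change in no.2 was -0.42 (SE 0.19, adjusted p = 0.141, limma). A second probe gave -0.92 (SE 0.21, adjusted p = 0.016 over probes) and -0.51. Unscaled, its processed signals were 2575 and 2607 in no.1, 2299 and 2245 in no.2, and 1827 and 1850 in control, and spike-in scaling turned the changes to 1.02 (adjusted p = 0.0113) and 0.87 (adjusted p = 0.0286, limma). The no.1 call was lost with normexp (-0.22, adjusted p = 0.0514), with scaling to the median probe (-0.49, adjusted p = 0.128), and with either control left out (-0.94, adjusted p = 0.0754 without replicate 1, and -0.90, adjusted p = 0.0857 without replicate 2).

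Col22a1, a FACIT of tissue junctions such as that of muscle and tendon, had log2 levels of -3.16 and -2.56 in no.1, -2.29 and -2.61 in no.2, and -1.13 and -1.95 in control. The controls lay above the other 4 arrays. Relative to the 75th percentile Col22a1 fell by 1.33 in no.1 (SE 0.35, adjusted p = 0.0255), while the change was -0.91 in no.2 (SE 0.35, adjusted p = 0.0985), and with spike-in scaling the values were 0.61 and 0.37 (limma). The no.1 call was lost without no.1 replicate 1 (-1.02, adjusted p = 0.128) and also without control replicate 1 (-0.91, adjusted p = 0.125). A second Col22a1 probe was above background on no array, and the mean of both probes gave -0.96 (adjusted p = 0.0902).

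The other tested FACIT genes were not called. Col9a2, a chain of the cartilage FACIT type IX, had log2 levels of -1.70 and -1.20 in no.1, -0.85 and -0.82 in no.2, and -0.89 and -0.62 in control, with a no.1 change of -0.69 (SE 0.24, adjusted p = 0.0565, limma) that was -0.94 without no.1 replicate 2 (adjusted p = 0.0365) and 1.25 with spike-in scaling. Col12a1 and Col14a1 bind the surface of type I fibrils. Col12a1 changed by 0.43 in no.1 and 0.32 in no.2 at its brighter probe and by -0.56 and -0.41 at the dimmer one, none of these called. Col14a1 had changes of -0.46 (SE 0.21) and -0.036. Its log2 levels were -2.41 and -2.12 in no.1, -1.97 and -1.70 in no.2, and -1.75 and -1.85 in control, with both no.1 arrays lowest. Col9a1, Col9a3, Col19a1 and Col20a1 were above background on no array.

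**Figure D4:**
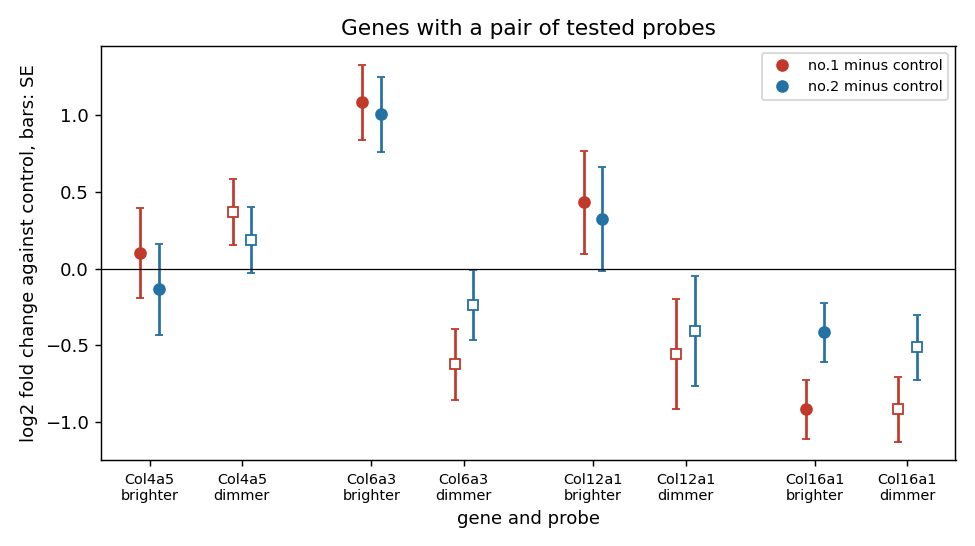
Log2 fold change against control (y axis, limma over probes, bars are SE) of no.1 and no.2 at the brighter (circles) and dimmer (squares) probe (x axis) of the 4 genes with 2 tested probes. The Col16a1 probes give -0.92 each in no.1 (1.02 for the gene with spike-in scaling), whereas the Col6a3 probes give 1.08 and -0.63.

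Of the 25 member probes that could be tested, 4 were called higher and 3 lower in no.1, where 22% and 24.6% of all 29681 probes were. In no.2, 4 were called higher and 1 lower, where 11.9% and 14.7% of all probes were. The further called probe in no.1 was the second one of Col16a1. Probes of 1 gene read the same RNA and are no replicates.

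Type VII, the transmembrane collagens and the multiplexins held no called gene. Col7a1, the anchoring fibril chain, had log2 levels of 1.51 and 1.11 in no.1, 1.40 and 1.13 in no.2, and 1.78 and 1.65 in control, all 4 treated arrays being below both controls (limma, log2 change -0.41 in no.1 at adjusted p = 0.184 and -0.45 in no.2 at adjusted p = 0.179, SE 0.23 each). With spike-in scaling the Col7a1 values were 1.53 and 0.83. Col18a1, the precursor of endostatin, had 2.74 and 3.70 in no.1, 4.12 and 3.86 in no.2, and 3.90 and 3.92 in control (log2 change -0.69, SE 0.34, and 0.080), and the no.1 value was -1.17 without no.1 replicate 2 (adjusted p = 0.0229, limma) and 1.25 with spike-in scaling. Col15a1, the other multiplexin, was above background on no array. Col17a1, a hemidesmosome component of keratinocytes, was above background on both no.1 arrays, on neither no.2 array and on 1 control array. Its processed signals were 8.90 and 7.26 in no.1, 4.83 and 3.62 in no.2, and 3.07 and 6.22 in control. With only 1 control array above background, no bound on the no.2 change of Col17a1 can be given. The fitted log2 change of no.2 against control was -0.79 (SE 0.37) and was not called (limma, adjusted p = 0.155). Of 6 keratinocyte markers Trp63 was above background on all arrays and Krt5, Krt14, Krt15, Cdh1 and Epcam on none. Col25a1, a membrane collagen of neurons and developing muscle, was above background on all 4 treated arrays and on neither control (limma, fitted change 0.65 in no.1 at adjusted p = 0.347 and 1.35 in no.2 at adjusted p = 0.104). Only no.1 and no.2 let Col25a1 be tested. The bound, which has no test of its own, was 1.04-fold higher in no.2, and in no.1 no bound above 1 was reached. A second Col25a1 probe was above background on no array. The mean of both probes gave -0.41 in no.1 (adjusted p = 0.299, limma), while the no.2 value kept its sign. With normexp, whose offset of 50 exceeds its signals, Col25a1 was at -0.56 in no.1 (adjusted p = 0.00499, limma) and -0.14 in no.2. Col13a1, a transmembrane collagen of the neuromuscular junction, was above background on no array.

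Col26a1, a short collagen first described in testis and ovary, had log2 levels of -3.30 and -3.66 in no.1, -3.74 and -3.70 in no.2, and -2.96 and -2.82 in control. Both no.1 arrays, neither no.2 array and 1 control array were above background. Relative to the 75th percentile Col26a1 was called lower in no.2 (fitted log2 change -0.83, SE 0.21, adjusted p = 0.0343), and the no.1 change was -0.60 (SE 0.21, adjusted p = 0.0586, limma). Only no.1 had both arrays above background, so the gene was tested through no.1 alone. Unscaled, its processed signals were 9.71 and 6.71 in no.1, 4.12 and 4.37 in no.2, and 4.40 and 4.79 in control. No bound on the no.2 change can be given from these. With spike-in scaling the values were 0.45 in no.2 and 1.34 in no.1. The no.2 call was lost under 9 of 16 alternatives, among them leaving out no.2 replicate 1 (-0.81, adjusted p = 0.0697), no.2 replicate 2 (-0.85, adjusted p = 0.0822), control replicate 1 (-0.90, adjusted p = 0.136) or control replicate 2 (-0.76, adjusted p = 0.192). Col28a1, a collagen of peripheral nerve, was above background on no array.

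The series' design text names no.1 against no.2, continued tamoxifen against its withdrawal. By limma 0 of 21 members were called, and 0 of 23060 genes were (0%), with 4 members and 3825 genes at an unadjusted p under 0.05 and a smallest adjusted p of 0.282 among members. The 4 were Col6a1 (-1.20, SE 0.31), Col6a2 (-1.55, SE 0.46), Col16a1 (-0.50, SE 0.19) and Col9a2 (-0.62, SE 0.24), named after their values were seen. For 7 members (33.3%) both no.1 arrays lay below both no.2 arrays, namely Col6a1, Col6a2, Col8a2, Col9a2, Col14a1, Col16a1 and Col18a1, where this held for 25.4% of all genes tested. For 1 member (4.76%), Col26a1, both lay above, where this held for 22.5% of all genes. The median difference was 0.041 over the members and -0.011 over all genes. Position on the slide and group cannot be told apart in any of the 3 contrasts, since control lay in one row of the slide and the other groups in different columns of the other row.

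The 11 fibrillar collagens, set beside these genes, were all tested. The counts of this list and the 3 that follow stand beside 21.4% of all genes called higher and 26.4% lower in no.1, and 12.1% and 16.2% in no.2. In no.1 against control 1 was called higher and 2 lower, with a median of -0.45, and in no.2 2 were called higher and 1 lower, with a median of 0.17. Col11a1, a minor chain of fibrils, rose by 2.69 in no.1 (adjusted p = 0.0128) and by 3.58 in no.2 (adjusted p = 0.0113). Col11a2 fell by 1.59 and 1.16 (adjusted p = 0.00452 and 0.0176), values that were 0.35 and 0.13 with spike-in scaling, and it was not well above background in no.2. Col5a3 fell by 3.01 in no.1 (adjusted p = 0.0134, but -1.07, adjusted p = 0.217 with spike-in scaling), and Col27a1, not well above background in control, was called higher in no.2 (2.29, adjusted p = 0.0351, limma, but -0.015 with normexp). The no.1 call of Col11a1 was lost with normexp (1.06, adjusted p = 0.0737) and without either no.1 array (adjusted p = 0.0615 and 0.0655), and that of Col5a3 without no.1 replicate 1 (-2.33, adjusted p = 0.0777). In no.2 the Col11a2 call was lost without no.2 replicate 2 (adjusted p = 0.062) and without either control (adjusted p = 0.101 and 0.0832), and the Col27a1 call without any one array except no.2 replicate 1 (adjusted p between 0.0529 and 0.125).

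Of 25 tested genes for collagen modification, folding and export 0 were higher and 13 lower in no.1 (median -0.67), and 0 higher and 5 lower in no.2 (median -0.33), relative to the 75th percentile. Lox, which oxidises lysines for crosslinking, fell by 2.50 and 2.35 (adjusted p = 0.00318 and 0.00643). P3h4, a partner of the lysyl hydroxylase complex, changed by -1.65 and -1.24, and Plod3, the lysyl hydroxylase that also glycosylates type IV and VI chains, by -1.59 and -1.23 (adjusted p = 0.00327 and 0.0103, limma). With spike-in scaling the values of P3h4 were 0.29 and 0.044 and those of Plod3 were 0.34 and 0.051, and the calls of Lox were lost (-0.56, adjusted p = 0.267 in no.1, and -1.06, adjusted p = 0.0696 in no.2, limma). Without control replicate 1 or 2 the no.2 calls of P3h4 (adjusted p = 0.0602 and 0.0745) and Plod3 (adjusted p = 0.0608 and 0.0768) were lost.

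Of 15 tested basement membrane partners of type IV collagen 4 were higher and 4 lower in no.1 (median -0.028), and 4 higher and 3 lower in no.2 (median 0.19). Pxdn, the peroxidase that makes the sulfilimine crosslink of type IV collagen, rose by 1.35 and 1.42 (adjusted p = 0.0052 and 0.00891). Its log2 level was 5.57 and 5.27 in no.1, 5.42 and 5.55 in no.2, and 4.05 and 4.09 in control, which did not overlap with the others. The laminin chains Lama2 and Lamb2 fell, Lama2 by 3.15 and 2.89 and Lamb2 by 2.02 and 1.43 (adjusted p between 0.00187 and 0.00699). With spike-in scaling Lamb2 was at -0.083 and -0.15 (adjusted p = 0.797 and 0.666) and Lama2 at -1.22 and -1.60 (adjusted p = 0.0597 and 0.0291, limma). Sparc, which binds type IV collagen, was lower by the 75th percentile (-1.23 and -0.92, adjusted p = 0.00485 and 0.0183, limma) and higher with spike-in scaling (0.70 and 0.37). Leaving out control replicate 1 or 2 ended the no.2 calls of Pxdn (adjusted p = 0.0566 and 0.0578) and Sparc (adjusted p = 0.108 and 0.124), and leaving out control replicate 2 that of Lamb2 (adjusted p = 0.057, limma).

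Of 17 tested collagen receptors and anchoring partners 2 were higher and 7 lower in no.1 (median -0.59), and 3 higher and 6 lower in no.2 (median -0.41). Tnxb, which links fibrils in the dermis, fell by 3.89 and 3.29, and Dcn, which coats fibrils and binds type VI collagen, fell by 3.73 and 2.29 (adjusted p between 0.00142 and 0.0172). The collagen receptor Ddr1 changed by -1.52 and -1.13, and by 0.42 and 0.15 with spike-in scaling. For Dcn the no.2 value was -1.01 with spike-in scaling (adjusted p = 0.146). The no.2 calls of both were lost without control replicate 1 or 2, with adjusted p = 0.0604 and 0.0685 for Dcn and 0.0743 and 0.0871 for Ddr1 (limma). In no.1 against no.2, 0 genes of these 4 lists were called by limma, where 4, 3, 3 and 3 genes of the fibrillar, modification, basement membrane and receptor lists had an unadjusted p under 0.05.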

How the data were processed

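Agilent scanner files of 6 arrays were used as the authors deposited them, with intensity values that, per the file headers, came from Agilent Feature Extraction 12.1.1.1 (the submitters' processing notes name 9.5.1.1) on a design of build mm9. That processed signal had its background subtracted on each array, per the file headers, with no step across arrays. The arrays shared 1 slide and 1 scan. The log2 ratio of that signal to its array's 75th percentile, taken over 56605 non-control probes, was analysed, with spots of a probe averaged without outlier flags. Symbols were found for 32994 probes (58.3%) in a RefSeq table of assembly GRCm38.p6, and 8979 tested genes kept the file's accession. A gene is its probe of highest mean. 0 probe values were saturated. Tests used limma 3.58.1 (lmFit, eBayes) in R 4.3.3 with data.table (1.17.8), a mean per group over all 6 arrays (3 residual degrees of freedom) and Benjamini-Hochberg adjustment over 23060 genes, threshold 0.05. The fit was run on simulated data with the same spread in all groups, unlike these arrays, whose controls lay closer together. It checked the size of the estimates and does not bear on the calls. The precision is limited by 2 arrays a group. Alternatives were normexp (offset 50, on median signals, since the scanner files have no column of mean signals), quantile, median-probe and spike-in scaling, the series' value table (intensity as deposited), no filter on dim probes, the mean of a gene's probes, a replicate block, averaged controls, only the groups compared, and each array left out. All members are named, with every array's value for called ones; of each comparison list, up to 3 called genes per contrast by lowest adjusted p and Plod2 are named. 1 marker gene is not reported here. Members, lists and tests were chosen with earlier results of these data known. Same-numbered arrays correlated in their deviations by 0.165 between no.1 and no.2, -0.035 between no.1 and control and -0.017 between no.2 and control. The numbers were not taken to pair the samples in the main fit. Same-numbered arrays of no.1 and no.2 do share the hours in their file names, so a pairing of these groups is not excluded. With the replicate block 0 genes were called between no.1 and no.2.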

Additional observations from a re-analysis of the deposited data

Results flagged for a closer look

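Col6a1, a chain of type VI collagen, was singled out because its arrays moved in opposite directions against control. Both no.1 arrays lay below both controls (log2 change -0.85) and both no.2 arrays lay above them (0.35). Neither change was called. The difference between no.1 and no.2 was tested directly by limma, gave -1.20 (SE 0.31) and did not pass (adjusted p = 0.282, unadjusted p = 0.00792). With spike-in scaling both values were positive, 1.09 in no.1 and 1.63 in no.2. With normexp they were -0.21 and 0.71.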

How the results depend on the processing

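In no.1 the members called higher numbered 4 in the main fit (21.4% of all genes) and 18 with spike-in scaling (82.3%). With the mean of all probes 2 were higher (19.7%). The count was 5 with normexp (25.2%), quantile normalization (25.9%), the value table (25.9%), the median probe (32.8%) and the replicate block (20.6%). Those called lower numbered 8 with normexp (44.8%), 1 with the median probe (14.3%), 0 with spike-in scaling (1.83%), 9 without the filter (43.3%), 4 with the replicate block (25.2%), 0 with averaged controls (11.2%), 3 with only the groups compared (29.4%) and 0 to 6 with an array left out, against 2 (26.4%). In no.2 the members called higher numbered 4 in the main fit (12.1%), 2 with normexp (13.2%) and 5 with the median probe (21%). The count was 17 with spike-in scaling (65.2%) and 2 with the mean of all probes (10.9%). Members called lower in no.2 numbered 1 in the main fit (16.2%) and 3 with normexp (21.4%). Without the filter 5 of 33 were lower (29.5% of 45616 genes). The count was 0 with quantile normalization (13.5%), the median probe (9.44%), spike-in scaling (2.32%), the value table (13.3%) and the replicate block (14.8%). Leaving out an array moved the counts in both contrasts. It leaves 1 array in a group, so those counts are not given. Between no.1 and no.2, 5 of 33 members were lower without the filter (17% of 45616 genes), all dim genes at raw signals of a few units, and 0 otherwise. The replicate block, on numbers that were not taken to pair the samples in the main fit, added Col4a1, Col6a1 and Col6a2 in no.1 and removed Col26a1 in no.2. Under normexp these changes, called or not, turned sign: in no.1 Col10a1 (-0.37), Col25a1 (-0.56), Col6a4 (-0.033), Col7a1 (0.057) and Col27a1 (-0.53), and in no.2 Col10a1 (-0.16), Col25a1 (-0.14), Col4a5 (0.088), Col8a2 (-0.12) and Col27a1 (-0.015). The processed signals of Col10a1, Col25a1, Col6a4, Col8a2 and Col27a1 all lay below the offset of 50 that normexp adds. A turn of sign there does not settle the direction either way. Under spike-in scaling these turned positive in no.1: Col14a1 (1.47), Col16a1 (1.02), Col17a1 (1.40), Col18a1 (1.25), Col22a1 (0.61), Col26a1 (1.34), Col6a1 (1.09), Col6a2 (0.62), Col7a1 (1.53), Col8a2 (0.62), Col9a2 (1.25), Col11a2 (0.35), Ddr1 (0.42), P3h4 (0.29), Plod3 (0.34) and Sparc (0.70). In no.2 they were Col14a1 (1.25), Col16a1 (0.87), Col17a1 (0.50), Col22a1 (0.37), Col26a1 (0.45), Col4a5 (1.15), Col7a1 (0.83), Col9a2 (1.21), Col11a2 (0.13), Col5a3 (0.60), Ddr1 (0.15), P3h4 (0.044), Plod3 (0.051) and Sparc (0.37). The share of higher calls over all genes was 44.8% in no.1 and 42.8% in no.2, against 69.7% and 69% with the median probe, 97.8% and 96.6% with spike-in scaling, and 20.6% and 18.4% without the filter. The cause of these shifts was not tested. Naming probes by gene names in the scanner files was not run, since these have no column of gene names. Col10a1, Col6a4, Col17a1, Col25a1 and Col26a1 lie near background, where signal over background limits every value.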
